A study of Gallus gallus with 10 samples.

Results

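The globin and erythroid genes described here are a list of 10 genes of red blood cells and their precursors, namely the alpha-type globins HBZ, HBAD and HBA1, the beta-type globin HBE1, the anion exchanger SLC4A1, the carbonic anhydrase CA2, the heme enzymes ALAS2 and FECH, and the transcription factors TAL1 and GATA1. They were chosen by gene symbol, not by their values here, and 7 of the 10 could be measured, out of 13009 genes named on the array. The 7 genes had 14 probe sets, of which 11 passed the filter on dim probe sets. No probe set carried the symbol GATA1 or ALAS2, and those genes are not analysed here. HBE1 appeared on 1 probe set that is shared with the adult beta-globin gene HBBA, so its signal is given below without being assigned to either gene.

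The samples were whole hearts of chicken embryos, 5 pools of males and 5 pools of females, each carrying a letter from A to E, with 1 array per pool. The labels name no treatment other than harvest, and the strain, the embryonic age, the number of embryos per pool and any perfusion of the hearts are not known from the labels used. Whether pools of 1 sex shared embryos is also unstated, and p-values then reflect only pool-to-pool spread, part of which may be technical. Array medians ran from 605 to 735 intensity units, and cardiomyocyte markers were among the brightest genes, with TNNT2, the cardiac troponin T gene, at 197378 in males and 208131 in females. Intensities of different probe sets are not comparable as amounts, so levels are compared only between arrays, and in a pooled whole organ fewer red cells and less RNA per red cell cannot be told apart.

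Hemoglobin is a tetramer of alpha-type and beta-type globin chains, each holding a heme group, and the chains change during development. In the chicken the embryonic alpha-type chain, pi, is encoded by HBZ and is made in the first, primitive red cells, while alpha-D (HBAD) and alpha-A (HBA1) are made in primitive and later, definitive cells. The beta-type chains rho (HBBR) and epsilon (HBE) are embryonic, and HBBA encodes the adult chain. Bird red cells keep their nucleus, and young circulating cells carry abundant globin RNA, so a heart collected with its blood contains that RNA too. In the RefSeq gene table the 3 alpha-type genes are consecutive protein-coding genes on chromosome 14 in the order HBZ, HBAD, HBA1, next to NPRL3. The 4 beta-type genes are consecutive on chromosome 1 in the order HBE, HBBA, HBE1, HBBR.

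None of the 7 genes passed the test between male and female hearts (0 of 7 genes and 0 of 11 probe sets by limma at an adjusted p of 0.05), where 2.23% of all 10285 genes and 1.76% of 23064 probe sets passed (1.51% higher in males and 0.256% higher in females). Of the 7, HBZ and CA2, both autosomal, had an unadjusted p under 0.05, as did 10% of all genes, 7.25% of autosomal genes and 9.1% of probe sets. The median log2 ratio of the 7 genes, male minus female, was -0.05, with 4 below 0 and 3 above, and the median of all genes was -0.02. For 0 of the 7 genes were all arrays of 1 sex above all arrays of the other, as was the case for 3.91% of all genes. The highest array was 1.46-fold to 6.23-fold above the lowest for the brightest probe set of each gene. These spans are not comparable between probe sets: saturation of the brightest was not checked, and 2 further TAL1 probe sets spanned 2.33-fold and 1.55-fold.

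**Figure D1:**
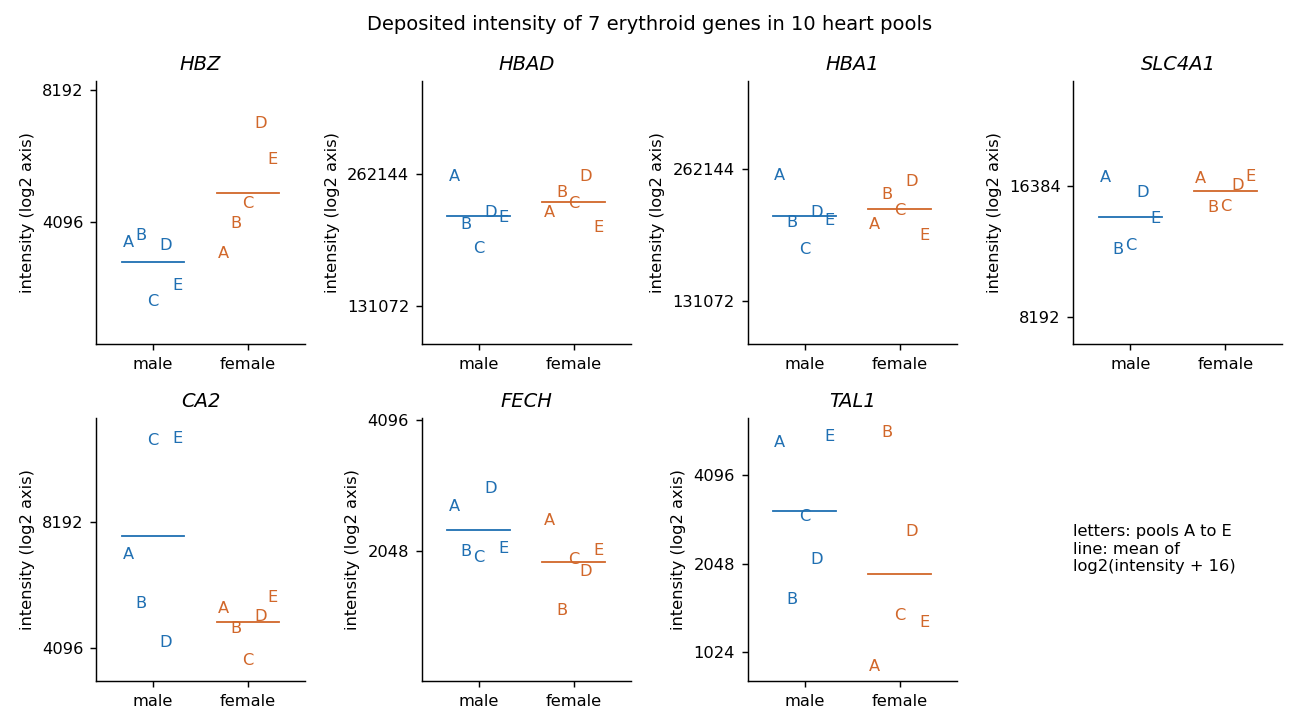
Deposited intensity of the brightest probe set of each measured gene (y axis, intensity on a log2 axis) in male and female pools (x axis); each letter is 1 pool and each line the mean of log2(intensity + 16), converted back. HBAD and HBA1 span 1.46-fold and 1.47-fold over the 10 pools, CA2 stands high in males C and E, and TAL1 spans 6.23-fold.

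HBZ, the embryonic alpha-type globin gene on chromosome 14, had the largest ratio among the globins. Males A to E had HBZ intensities of 3677, 3814, 2692, 3620 and 2925, and females A to E had 3466, 4049, 4498, 6861 and 5680. Females B, C, D and E lay above every male, female B only narrowly, and female A was below 3 of the males. HBZ averaged 3346 ± 502 over the male pools and 4911 ± 1360 over the female pools (SD, n = 5 each). The log2 difference, male minus female, was -0.52 ± 0.16 (SE, 95% interval -0.87 to -0.18), which is 1.44-fold higher in females and did not pass (limma adjusted p = 0.203, unadjusted p = 0.00578).

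HBAD, the alpha-D globin gene, was among the brightest probe sets of the array. Its intensities were 259201, 201660, 177065, 214458 and 208891 in males A to E and 214870, 237941, 224776, 258950 and 198424 in females A to E. Male A and female D were nearly equal at the top, male C was lowest, and the sexes overlapped throughout. The log2 difference was -0.10 ± 0.09 (95% interval -0.29 to 0.09, limma adjusted p = 0.811). It was -0.04 without male C, -0.05 without female D and -0.18 without male A.

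HBA1, the alpha-A globin gene, followed the same order at its ends. Males A to E had 253372, 198468, 171880, 208979 and 200135, and females A to E had 195679, 229498, 210877, 245682 and 185079. Male A and female D were again highest and male C lowest. HBA1 differed by -0.05 ± 0.09 on the log2 scale (95% interval -0.25 to 0.15, limma adjusted p = 0.922), and the estimate changed sign without male C (0.013) or without female D (0.0023).

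The other probe sets of the alpha globins fell into 2 kinds. A second bright probe set of each gene varied with the first, with r = 0.94 for HBAD and r = 0.98 for HBA1 over 10 arrays, and had log2 ratios of -0.05 ± 0.10 and -0.08 ± 0.10 (limma adjusted p = 0.936 and 0.871). The remaining probe set of each gene was dim and below the filter. It read 59.9 to 408 for HBAD, highest in male D, and 11.7 to 86.3 for HBA1, highest in male E, and had r = 0.18 and r = 0.04 with the bright probe set of its gene. These dim values did not follow the bright probe sets.

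Beta-type globins lay outside the list except for HBE1. HBBR, the rho globin gene, averaged 18240 ± 3555 (SD) over the 5 male pools and 21841 ± 3040 over the 5 female pools, a log2 difference of -0.27 ± 0.12 (limma adjusted p = 0.527). HBE, the epsilon globin gene, averaged 20185 ± 2509 and 21606 ± 3114, a difference of -0.10 ± 0.10 (limma adjusted p = 0.843). Both embryonic beta-type genes thus had estimates below 0, as did HBZ and also HBAD and HBA1, and neither of the beta-type genes passed. The probe set shared by HBE1 and HBBA ran from 132574 in male C to 183565 in female D, with a log2 difference of -0.10 ± 0.07 (limma adjusted p = 0.754). The probe set shared by HBBR and HBBA ran from 183956 in male C to 283413 in female D, the highest value of the whole data set, with a difference of -0.02 ± 0.11 (limma adjusted p = 0.975).

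**Figure D2:**
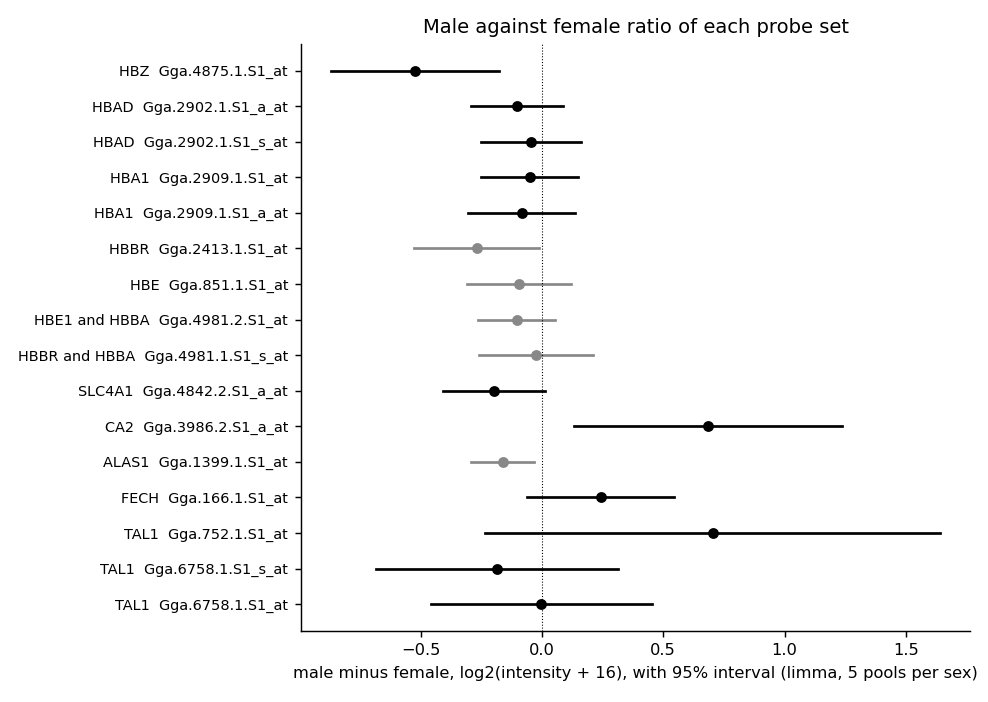
Male minus female difference in log2(intensity + 16) (x axis) with its 95% interval for each tested probe set (y axis); black marks the listed genes and grey marks related globins, shared globin probe sets and ALAS1. The intervals of HBZ (-0.87 to -0.18), HBBR (-0.53 to -0.01) and ALAS1 (-0.29 to -0.03) lie below 0. That of CA2 (0.13 to 1.24) lies above 0, and none of these genes passed after adjustment.

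SLC4A1, which encodes band 3, the chloride and bicarbonate exchanger of the red cell membrane, is on chromosome 27. Its intensities were 17088, 11737, 11999, 15783 and 13828 in males A to E and 17000, 14650, 14723, 16409 and 17257 in females A to E. Males B, C and E were below every female, and males A and D were within the female range. For SLC4A1 the log2 difference was -0.20 ± 0.10 (95% interval -0.41 to 0.013, limma adjusted p = 0.585).

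CA2, on chromosome 2, encodes a cytosolic carbonic anhydrase that is abundant in red cells and is also made in other tissues. Males A to E had 6861, 5233, 12875, 4211 and 13023, and females A to E had 5104, 4552, 3825, 4872 and 5418. Males C and E stood far above every other pool, male A was also above all females, and males B and D were within the female range. CA2 averaged 8441 ± 4223 over the male pools and 4754 ± 609 over the female pools (SD, n = 5 each), and the log2 difference of 0.69 ± 0.26 did not pass (95% interval 0.13 to 1.24, limma adjusted p = 0.373). The log2 difference was 0.50 without male C and 0.49 without male E (limma adjusted p = 0.640 and 0.627). The spread of CA2 within sexes, an SD of 0.54 on the log2 scale, was larger than that of 89.3% of tested probe sets.

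FECH encodes ferrochelatase, which inserts iron into protoporphyrin in the last step of heme synthesis, and is carried on the Z chromosome, of which males have a pair and females a single copy. Males A to E had FECH intensities of 2597, 2044, 1981, 2852 and 2083, and females A to E had 2410, 1499, 1961, 1841 and 2051. Males A and D were above every female, female B was lowest, and the other 7 pools lay between 1841 and 2410. The log2 difference was 0.24 ± 0.14 (95% interval -0.06 to 0.55, limma adjusted p = 0.672), or 1.18-fold higher in males. The 492 measured Z genes had a median ratio of 0.40 and quartiles of 0.18 and 0.66, and 41.3% of them passed. Of all 492, 152 had a lower ratio than FECH. With single arrays left out, the FECH ratio ran from 0.15 without female B to 0.32 without female A, and was 0.16 without male D. The quartiles of the Z genes were not computed again for these fits, so these ratios cannot be placed among them.

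TAL1, on chromosome 8, encodes a basic helix-loop-helix factor of blood and endothelial precursors, which works with GATA1 in red cells. Its brightest probe set read 5281, 1548, 2972, 2111 and 5543 in males A to E and 918, 5719, 1365, 2624 and 1291 in females A to E. The 3 highest pools, female B and males E and A, came from both sexes. The log2 difference was 0.70 ± 0.44 (95% interval -0.23 to 1.64, limma adjusted p = 0.705), and it was 1.10 without female B and 0.45 without female A. Its SD within sexes of 0.93 was above that of 98.0% of tested probe sets. A pair of other TAL1 probe sets above the filter had narrower ranges, 575 to 1343 and 543 to 842, and ratios of -0.19 ± 0.23 and -0.0026 ± 0.21 (limma adjusted p = 0.871 and 0.998). Over 10 arrays they had r = 0.23 and r = 0.49 with the brightest, so the probe sets of TAL1 did not give a common order of the pools. The last TAL1 probe set was below the filter, at 14.2 to 64.4.

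Co-variation between pools was read from all 21 pairs of the 7 genes, in a family of 24 relations that also held 3 technical measures. Only HBAD with HBA1 passed, at r = 0.98 (adjusted permutation p = 0.00072) and rho = 0.93 (adjusted permutation p = 0.00912, n = 10 arrays). Leaving out males C and A, the pools farthest from the median of HBAD, gave r = 0.96, and subtracting the mean of each sex gave r = 0.99. HBZ had r = 0.50 with HBAD, 0.43 with HBA1 and 0.52 with SLC4A1, with rho of 0.39, 0.43 and 0.39, and none of these passed (adjusted permutation p = 0.430 for each r, n = 10); without females D and E they were 0.64, 0.61 and 0.33. SLC4A1 had r = 0.58 with HBAD (rho = 0.39) and 0.46 with HBA1 (rho = 0.22), and neither passed (adjusted permutation p = 0.430 for each r, n = 10). In males alone these r values were 0.86 and 0.84, and in females alone -0.43 and -0.50. CA2 had r = -0.63 with HBZ (rho = -0.52), -0.46 with HBAD (rho = -0.42) and -0.40 with HBA1 (rho = -0.38), which did not pass either (adjusted permutation p = 0.430 for each r, n = 10). The correlation of CA2 with HBZ was -0.91 without females D and E and -0.39 with sex means subtracted. In males alone it was -0.91, and in females alone 0.20. FECH and SLC4A1 had r = 0.32 over all pools (rho = 0.36, r = 0.41 without male D and female B) and r = 0.76 with sex means subtracted (adjusted permutation p = 0.550 and 0.137, n = 10).

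The agreement of HBAD and HBA1 was shared with other very bright probe sets. The mean of the 4 GAPDH control probe sets had r = 0.98 with HBA1 and r = 0.97 with HBAD. The 40 brightest probe sets without a globin name had r = 0.63 to 0.98 with HBA1, with a median of 0.95, whereas the median over all tested probe sets was 0.01. After quantile normalization, which gives every array the same distribution of values, HBAD and HBA1 had r = 0.60, HBA1 and GAPDH r = 0.26, and 0 of the 21 pairs passed. HBAD and HBA1 were at percentiles 99.99 and 99.98 of mean level, where this normalization leaves values little room to differ between arrays. The lower r was therefore partly set by the method, and no conclusion is drawn from it. Relative to GAPDH, the mean alpha-globin level of a pool spanned 0.16 on the log2 scale, against 0.55 without that reference. The part of this shared movement of bright probe sets in the alpha-globin values was not tested.

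The embryonic globins varied together under both scalings. Among 45 relations of 9 globin and red cell measures and GAPDH, a set extended after the values were seen, HBZ had r = 0.82 with HBE (rho = 0.78, adjusted permutation p = 0.0119 and 0.0351, n = 10) and r = 0.81 with HBBR (rho = 0.71, adjusted permutation p = 0.0150 and 0.0843, n = 10). HBBR and HBE had r = 0.77 (rho = 0.81, adjusted permutation p = 0.0348 and 0.0288, n = 10). After quantile normalization these 3 correlations were 0.81, 0.81 and 0.77. Without females D and E, the pools farthest from the median of HBZ, HBZ had r = 0.59 with HBE and 0.70 with HBBR, and with sex means subtracted over all pools 0.90 and 0.72. By the last measure HBE had rank 4 among 10284 genes, behind genes without a globin name, of which the highest had r = 0.95. HBBR was not among the 8 highest. The 95th percentile of r with HBZ was 0.63. HBBR also varied with SLC4A1, at r = 0.76 (rho = 0.79, adjusted permutation p = 0.0348 and 0.0334, n = 10), at r = 0.77 without males B and C and at r = 0.79 after quantile normalization. HBZ had r = 0.44 with GAPDH, and r = 0.06 after quantile normalization. HBBR had r = 0.62 with GAPDH and 0.65 with HBAD (adjusted permutation p = 0.126 and 0.117, n = 10). HBE had 0.37 and 0.35 with them (adjusted permutation p = 0.317 and 0.335, n = 10). After quantile normalization these were 0.33 and 0.55 for HBBR and 0.31 and 0.15 for HBE.

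**Figure D3:**
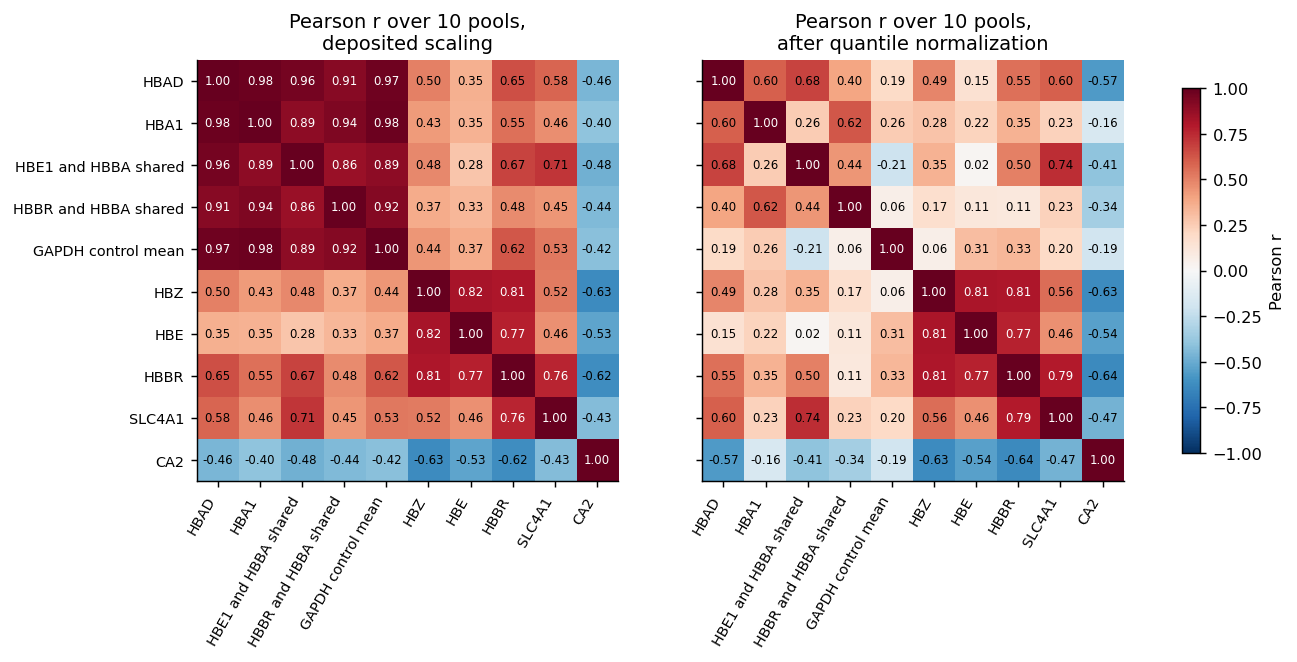
Pearson r over the 10 pools between globin, SLC4A1, CA2 and GAPDH signals (both axes), with the deposited scaling on the left and after quantile normalization on the right; colour and printed number give r. HBAD, HBA1, the shared probe sets and GAPDH form a block of r = 0.86 to 0.98 on the left that is weaker on the right, while HBZ, HBE and HBBR keep r = 0.77 to 0.81 there. Quantile normalization leaves the brightest probe sets little room to differ between arrays, so these blocks cannot be compared by their change in r.

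**Figure D4:**
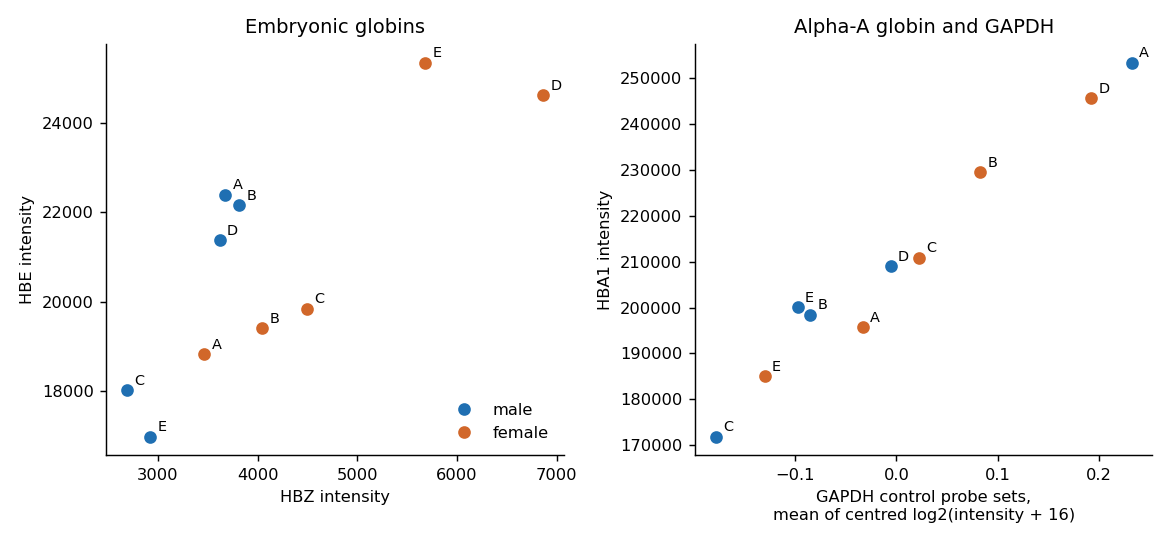
Left, HBE intensity (y axis) against HBZ intensity (x axis); right, HBA1 intensity (y axis) against the mean centred log2(intensity + 16) of the GAPDH control probe sets (x axis); each point is 1 pool, marked with its letter. Females D and E are highest for both embryonic globins, and HBA1 follows GAPDH at r = 0.98 from male C to male A.

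The embryonic globin level was then set against that of alpha-D and alpha-A within each pool, as centred log2 HBZ minus the mean of centred HBAD and HBA1. Males A to E had -0.38, 0.03, -0.27, -0.12 and -0.38, and females A to E had -0.14, -0.10, 0.15, 0.54 and 0.67. Females D and E stood highest and males A and E lowest, and females A and B overlapped the males. The difference of -0.45 (95% interval -0.87 to -0.02) had p = 0.0476 by the two-sided exact permutation test, or 0.0794 adjusted over the 2 such values computed, so it did not pass the correction. The unadjusted p rose above 0.05 in 7 of 10 fits that left out 1 array, those without female C, D or E or male A, C, D or E (exact p up to 0.111). With HBZ, HBBR and HBE together as the embryonic globins, added once the data had been seen, the contrast was -0.22 (exact p = 0.159).

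The erythroid level was the mean of centred log2 HBZ, HBAD, HBA1 and SLC4A1, taken as the autosomal genes restricted to red cells. These 4 genes are also those of the 7 with ratios below 0, and CA2, FECH and TAL1 were left out. The erythroid level gave a single value per pool. It was 0.15, -0.15, -0.36, -0.02 and -0.17 in males A to E and -0.03, 0.07, 0.05, 0.35 and 0.10 in females A to E. Female D had the highest and male C the lowest level, a 1.64-fold span. The male minus female difference was -0.22 (95% interval -0.46 to 0.03, exact permutation p = 0.0794, 5 pools per sex). It passed without male A (-0.28, exact p = 0.0238), after quantile normalization (-0.20, exact p = 0.0317) and relative to GAPDH, also added later (-0.16, exact p = 0.0159). It did not pass when every probe set of these 4 genes above the filter was used (-0.17, exact p = 0.190) or without any array other than male A (exact p up to 0.159), and it changed sign when all 7 genes were averaged (0.11, exact p = 0.381). The mean of HBAD and HBA1 alone differed by -0.08 (exact permutation p = 0.516). Relative to GAPDH that mean differed by -0.02 (exact permutation p = 0.571), whereas HBZ had the largest ratio of the 4 genes. The erythroid level had r = 0.42 with the array median, 0.02 with the 3′ over 5′ signal of actin and -0.41 with that of GAPDH (rho = 0.14, -0.08 and -0.37, adjusted permutation p = 0.430, 0.988 and 0.430, n = 10). Without male C and female D these were -0.08, 0.06 and 0.18. The mean GAPDH control level was not among these technical measures. Of the 4 genes in the erythroid level, HBAD and HBA1 had r = 0.97 and 0.98 with it, SLC4A1 0.53 and HBZ 0.44.

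Marker lists of other cell types were read beside it. With sex means subtracted, the mean centred log2 level of 8 measured cardiomyocyte markers of 9 listed had r = 0.88 with the erythroid level, and ran from -0.13 to 0.15 in males and -0.04 to 0.15 in females. The single markers differed, with r = -0.39 for RYR2, 0.41 for MYH7 and 0.62 for NKX2-5. TNNI1, MYL3, ACTC1, TNNT2 and MYL2 had r = 0.71 to 0.90, and these were above the 99th percentile of mean level. The 6 endothelial markers had r = -0.33, the 6 leukocyte markers -0.27, 3 of 5 thrombocyte markers 0.56 and 3 of 5 liver markers -0.59. The levels of these 4 lists ran from -0.04 to 0.12, -0.24 to 0.31, -0.40 to 0.16 and -0.53 to 0.56 in males, and from -0.05 to 0.08, -0.03 to 0.11, -0.09 to 0.45 and -0.70 to 0.55 in females. The part of these cells in the erythroid level was not tested.

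The 8 genes most like the erythroid level, with sex means subtracted, were UQCRC1 of respiratory complex III (r = 0.95), the immune receptor gene VSIR (0.94), the ribosomal protein gene RPL10A (0.93), RBM41 (0.92), DUSP11RC1I (0.92), OAZ1, encoding an inhibitor of ornithine decarboxylase (0.92), and the ribosomal protein genes RPLP1 (0.91) and RPS4Y1 (0.91). Of these, 5 were above the 99th percentile of mean level. Over 10278 genes the median r was 0.035 and the 95th percentile 0.67. The ranking is a description of 10 arrays.

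Heme synthesis begins with 5-aminolevulinate synthase and ends with ferrochelatase, and 5 of 7 other genes of the pathway were measured. All 5 were on the female side, with a median ratio of -0.16 against -0.03 for all autosomal genes. Z-linked FECH was on the male side at 0.24, below the median of 0.40 for Z genes. Of the 5, 0 passed in either direction, where 0.164% of autosomal genes did. An unadjusted p under 0.05 was found for 3 of the 5, as for 7.25% of autosomal genes. ALAS1, the first enzyme, was at -0.16 ± 0.06 (limma adjusted p = 0.380); the RefSeq table lists ALAS2 among its older names, so the form it reads is uncertain. ALAD, which joins aminolevulinate into porphobilinogen, was at -0.14 ± 0.08, and UROS, uroporphyrinogen III synthase, at -0.09 ± 0.09 (limma adjusted p = 0.651 and 0.844). UROD, uroporphyrinogen decarboxylase, had 8759, 7266, 7800, 7955 and 8062 in males A to E and 9840, 9954, 8638, 9843 and 9919 in females A to E. Only male A reached above female C, and the log2 difference was -0.27 ± 0.07 (limma adjusted p = 0.0565). CPOX, coproporphyrinogen oxidase, averaged 23983 ± 1198 (SD) over the 5 male pools and 28112 ± 2235 over the 5 female pools, at -0.23 ± 0.06 (limma adjusted p = 0.106). UROD and CPOX passed after quantile normalization (limma adjusted p = 0.0422 and 0.0497), UROD also with the stricter filter (0.0397), without female C (0.0303) and without male A (0.0390), and CPOX also without female D (0.0312). In the other alternatives neither passed, 16 for UROD and 18 for CPOX (adjusted p up to 0.177 and 0.349).

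**Figure D5:**
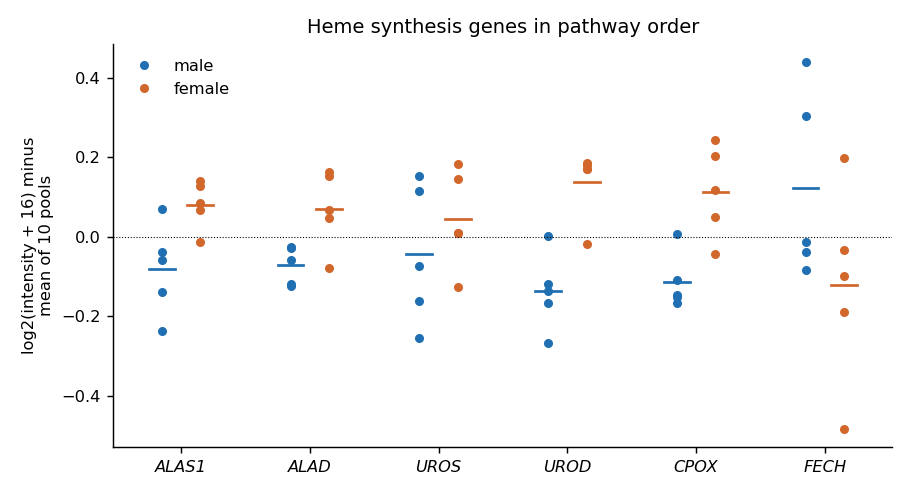
log2(intensity + 16) less the mean of 10 pools (y axis) for 6 heme synthesis genes in pathway order (x axis); points are pools and short lines the means of each sex. ALAS1 to CPOX have female means above male means, and Z-linked FECH has the reverse; none of the 6 passed with the deposited scaling.

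Of 64 measured genes in 7 lists of erythroid function, 1 passed, where 2.23% of all genes did. It was TMOD1, a tropomodulin that caps actin filaments in the red cell skeleton and in the sarcomere of heart muscle, in the list of red cell membrane and skeleton genes (1 of 16 higher in males, 0 higher in females, median ratio -0.05). TMOD1 lies on Z, where 41.3% of genes passed and the median ratio was 0.40, against 0.164% of autosomal genes passing. The other Z genes of these lists did not pass, with ratios from -0.04 to 0.14. TMOD1 had 30242, 17252, 14161, 18580 and 13811 in males A to E and 9046, 9367, 9858, 8958 and 8336 in females A to E, with every male above every female. The log2 difference was 0.98 ± 0.16 (limma adjusted p = 0.00207), or 1.98-fold, and it lost the call in an ordinary test per probe set (adjusted p = 0.0839). The next largest ratios of that list were those of the blood group gene KEL at -0.36 ± 0.13 and the glycophorin C gene GYPC at 0.33 ± 0.13 (limma adjusted p = 0.349 and 0.379).

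In the other lists 0 genes passed by limma. An unadjusted p under 0.05 was found for 7 of their 48, against 10% of all genes and 7.25% of autosomal genes. These were HBBR, UROD, CPOX, ALAS1, ABCB6, LMO2 and TCF3, all autosomal and with ratios below 0. LMO2 and TCF3, from the list of transcription partners, had -0.19 ± 0.08 and -0.18 ± 0.07 (limma adjusted p = 0.481 and 0.466). Among 15 genes of iron and heme handling, with a median of -0.07, the porphyrin transporter gene ABCB6 had -0.65 ± 0.20, with means of 846 in males and 1356 in females (limma adjusted p = 0.180), the ferritin light chain gene FTL -0.27 ± 0.13 and the biliverdin reductase gene BLVRA -0.21 ± 0.18. Among 8 transcription partners of TAL1 and GATA1, with a median of -0.18, CBFA2T3 had -0.55 ± 0.30, GFI1B -0.22 ± 0.32 and RUNX1 -0.19 ± 0.30. Among 7 genes of erythropoietin and stem cell factor signalling, with a median of 0.07, the receptor gene KIT had 0.22 ± 0.13, the kinase gene LYN 0.12 ± 0.08 and the signalling inhibitor gene SOCS3 -0.13 ± 0.18. Among 10 red cell enzyme and histone genes, with a median of -0.05, the carbonic anhydrase gene CA9, on Z, had 0.14 ± 0.09, the nuclear export gene XPO7 -0.13 ± 0.10 and the bisphosphoglycerate mutase gene BPGM 0.11 ± 0.09. Apart from ABCB6, the genes named here for the largest ratios of their lists had limma adjusted p from 0.585 to 0.905. The 3 other globins measured were HBBR, HBE and the muscle oxygen store myoglobin, MB, at -0.07 ± 0.07 (limma adjusted p = 0.843).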

How the data were processed

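Total RNA of whole embryonic chicken hearts, pooled within each sex, was measured on 10 single-colour arrays, 5 per sex. The authors deposited 1 linear intensity per probe set and array. Software, summarisation and build: not given in the sources used here. A mean trimmed by 2% at both ends was 2500.5 to 2500.6 on every array, so the values had been scaled to a common level before deposit. Detection calls, saturation flags and scan dates were not used here.

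Probe sets were named through the platform annotation, which can be old, and symbols and chromosomes were updated through RefSeq genes of GRCg7b; probe sets with several symbols were not assigned to a gene. Of 38535 probe sets, 27178 had 1 symbol, 177 had several and 11180 were unnamed here. Values were taken as log2(intensity + 16). The 96 control probe sets and the dimmest 40% of the rest were left out, leaving 23064 probe sets and 10285 genes, each gene read through its brightest probe set. The sexes were compared with limma 3.58.1 (lmFit, eBayes with a variance trend; R 4.3.3), and p-values were adjusted by Benjamini-Hochberg over all 23064 probe sets. The fit was tested on simulated data. Single values per array were compared by exact permutation, and correlations by 100000 permutations of the arrays. The male minus female interval of such a single value is a 95% interval from the pooled variance.

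The members and gene lists were chosen with earlier results of these data known. Named genes were all members, the 3 largest ratios and every called gene of each list, and the 8 genes most correlated with the erythroid level. HBBR, HBE, ALAS1 and the shared globin probe sets were added as related genes. Alternatives were other normalization, centring, filters, pseudocounts, variance priors, a replicate block, array weights and leaving out each array. No array column was without a sample. Planned uses of ALAS2, GATA1 and HBE1 fell away because no probe set carried their symbol alone.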

Additional observations from a re-analysis of the deposited data

How the results depend on the processing

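No listed gene passed in any of 147 fits under alternatives, 21 per gene, with the lowest adjusted p at 0.0520 for HBZ. HBZ, HBAD, SLC4A1, CA2, FECH and TAL1 kept their direction in all of them, and HBA1 changed sign after quantile normalization (0.0016), without female D (0.0023) and without male C (0.013), in a range of -0.13 to 0.013 with 1 array left out. Over all probe sets, the count passing was 407 and ran from 329 to 414 over the alternatives, and from 336 to 398 with 1 array left out. The erythroid level difference was -0.20 after quantile normalization, -0.16 relative to GAPDH and 0.11 with all 7 genes averaged, and it ran from -0.28 to -0.15 with 1 array left out. The difference of HBZ minus alpha-D and alpha-A was -0.51 after quantile normalization and ran from -0.54 to -0.33 with 1 array left out. With 3 embryonic globins in place of HBZ alone it was -0.22. After quantile normalization 0 member pairs and 3 list genes passed, against 1 and 1.

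The letters did not meet the criterion for pairing, which asks for r over 0.1 in every pair: the deviations of same-letter pools had r from 0.0024 to 0.21, above 0.1 in 3 of 5 letters, and 4 of 5 males correlated best with the female of their letter, a hint of pairing from the data that the labels do not state. With the letter as a replicate block, 405 probe sets passed and no listed gene did. Within letters the difference of HBZ minus alpha-D and alpha-A was -0.45 (exact sign-flip p = 0.125, where 0.0625 is the smallest possible, against an exact permutation p of 0.0476 without the block). That of the erythroid level was -0.22 within letters and did not pass (exact sign-flip p = 0.125). The number of arrays limits the precision, and signal over background could not be judged for dim probe sets. The cause of these changes was not tested.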
